A study of Mus musculus with 16 samples.

Results

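The genes of ketone body synthesis, use and transport considered here were 7, Bdh1, Bdh2, Oxct1, Acat1, Aacs, Slc16a1 and Slc16a6, of the 55385 genes in the count table. They were found by matching the gene identifiers, with the version dropped, to these symbols, and all 7 had counts in all 16 libraries. Male C57BL/6 mice, 12 weeks old when they were acquired, were either fed without restriction (fed) or kept without food for 24 h (fasting). Liver, heart, muscle, kidney, brown adipose, white adipose, spleen and lung were taken from both groups, and tissue of 3 mice was pooled for each tissue and treatment. Each of the 16 pools gave 1 library of short-read RNA-Seq, so no level below has a replicate error, and a difference between the fed and the fasting library of a tissue is one between 2 libraries rather than between conditions. The labels name no transgene or deletion, and all tissues came from the same 2 groups of mice.

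Ketone bodies are made in liver mitochondria from the acetyl-CoA of fatty acid oxidation. Acetoacetate is formed there, and 3-hydroxybutyrate dehydrogenase 1 (Bdh1) reduces it to 3-hydroxybutyrate, which leaves the cell through monocarboxylate transporters. In heart, muscle, kidney and other tissues Bdh1 runs the other way, succinyl-CoA:3-oxoacid CoA-transferase (Oxct1) activates acetoacetate, and acetyl-CoA acetyltransferase 1 (Acat1) splits the product, whereas acetoacetyl-CoA synthetase (Aacs) activates acetoacetate in the cytosol for lipid synthesis. Slc16a1 (MCT1) is a proton-linked carrier of lactate and ketone bodies, Slc16a6 (MCT7) has been linked to their export from hepatocytes, and Bdh2 is a cytosolic dehydrogenase of the same name as Bdh1.

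The libraries held 14245178 to 36069968 counts on genes, and 3 counts, the floor used here, were worth 0.0832 to 0.211 CPM, the count scaled to the library total. Of the 112 levels of the 7 genes, the 76 of at least 10 CPM had 95% Clopper-Pearson intervals that reached 1.04% to 14.3% to either side, and for the 36 below 10 CPM they reached 12.5% to 114%. These intervals cover counting error only. Levels are given by library totals. The TMM factors, which scale libraries to each other, ran from 0.521 (fasting muscle) to 1.51 (fed spleen), so orders and folds between tissues can depend on the scaling. Each list of defining markers was highest in the tissue whose label it matches, and the hepatocyte list summed to 109700 CPM (fed) and 108083 CPM (fasting) in liver. In bulk tissue, fewer cells of a type and less RNA per cell cannot be told apart. Reads of Bdh1, Oxct1 and Slc16a6 could be shared with a gene on the opposite strand, since 13.7%, 12.6% and 21.5% of their exonic bases lie over an exon of Gm15743, BC037032 and Amz2, and the strand setting of the counting is not given in the sources used here. The highest level of these 3 partners was 1.38 CPM, 13.7 CPM and 68.6 CPM, so the values of Slc16a6 are the least certain.

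The windows around the start sites of Oxct1, Aacs and Slc16a1 are shown because Oxct1 and Aacs were lower in the fasting library of every tissue and Slc16a1 moved both ways. Each window runs from 250 bases before to 50 bases after the start in the RefSeq annotation of GRCm38.p6, 5′ to 3′ on the plus strand, and 5 of the 7 genes matched an entry (not Acat1 or Slc16a6). Capitals mark the motifs searched for on both strands, which were 5. The GC box was searched as GGGCGG. The CCAAT box was searched under those letters. The E-box was searched as CACGTG. The nuclear receptor element was taken as AGGTCA. The sterol regulatory element was taken as TCACNCCAC. No letters are in capitals where none was found.
Oxct1 (chr15:4026178-4026477): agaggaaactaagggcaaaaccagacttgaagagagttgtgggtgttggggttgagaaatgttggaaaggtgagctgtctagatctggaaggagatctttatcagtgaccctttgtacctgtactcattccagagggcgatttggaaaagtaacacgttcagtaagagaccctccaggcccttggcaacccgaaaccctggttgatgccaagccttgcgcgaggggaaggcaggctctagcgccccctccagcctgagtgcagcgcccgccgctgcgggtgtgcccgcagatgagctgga
Aacs (chr5:125475623-125475922): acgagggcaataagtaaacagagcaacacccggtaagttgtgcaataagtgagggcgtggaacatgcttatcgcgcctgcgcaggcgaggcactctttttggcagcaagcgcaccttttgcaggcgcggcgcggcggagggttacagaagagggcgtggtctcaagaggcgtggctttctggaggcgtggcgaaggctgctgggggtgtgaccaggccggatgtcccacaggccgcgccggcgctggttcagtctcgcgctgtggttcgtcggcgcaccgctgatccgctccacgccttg
Slc16a1 (chr3:104638414-104638713): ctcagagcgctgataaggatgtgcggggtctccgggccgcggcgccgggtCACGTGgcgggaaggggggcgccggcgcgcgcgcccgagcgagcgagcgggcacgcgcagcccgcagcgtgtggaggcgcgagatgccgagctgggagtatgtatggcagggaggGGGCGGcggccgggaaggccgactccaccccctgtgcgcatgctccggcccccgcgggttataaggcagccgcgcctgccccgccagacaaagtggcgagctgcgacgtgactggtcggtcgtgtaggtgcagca
None of the 5 motifs was found in the Oxct1 or the Aacs window. The Slc16a1 window held CACGTG starting at position -200 and GGGCGG at position -85, counted from the start site. The E-box stands in 7.15% and the GC box in 35.7% of all 32851 promoter windows of this length. The CCAAT box stands in 37.4%, the nuclear receptor element in 16.3% and the sterol element in 1.24%. The windows of Bdh1 and Bdh2 are not printed. Of them, 1 of 2 Bdh1 windows held the GC box as CCGCCC at position 16, and the Bdh2 window held CCAAT as ATTGG at position -141. No 2 matches overlapped. A match of letters is a description of the sequence and not a binding site.

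Oxct1 set liver apart from the other 7 tissues. Oxct1 (ENSMUSG00000022186.14, GRCm38 chr15:4026383-4155344, plus strand) had 6.25 CPM in liver of fed mice and 4.37 CPM after fasting, from 144 and 109 counts. In the textbook tissues of ketone use it had 1678 CPM (fed) and 1097 CPM (fasting) in heart, 1589.9 CPM and 1259.8 CPM in kidney, and 389 CPM and 239.6 CPM in muscle. In the other tissues the fed and fasting levels were 358 CPM and 319 CPM in brown adipose, 298 CPM and 194 CPM in white adipose, 123 CPM and 96.1 CPM in lung, and 110.4 CPM and 85.9 CPM in spleen. Liver was thus the lowest tissue under both treatments. By library totals, the highest tissue was above it by 268-fold in the fed and 288-fold in the fasting libraries. On TMM-adjusted totals liver was again lowest, both folds were smaller, and heart was the highest tissue under both treatments. By the geometric mean of both libraries, on library totals, some neighbours in the order had fed to fasting ranges that overlapped. These were kidney and heart, brown adipose and muscle, muscle and white adipose, and lung and spleen. On TMM-adjusted totals the range of muscle lay above those of brown and white adipose, without overlap.

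Bdh1, which acts in both synthesis and use, was instead highest in liver, with kidney next to it. Bdh1 (ENSMUSG00000046598.15, chr16:31422280-31458901, plus strand) had 172 CPM (fed) and 223 CPM (fasting) in liver and 161 CPM and 173 CPM in kidney. These ranges overlapped by library totals but not on TMM-adjusted totals, where both liver libraries lay above both kidney libraries. It had 47.1 CPM and 38.8 CPM in heart, 29.1 CPM and 17.4 CPM in muscle, 9.05 CPM and 7.51 CPM in spleen, and 4.13 CPM and 3.22 CPM in lung. The adipose tissues were lowest, with 0.859 CPM (fed) and 1.57 CPM (fasting) in white and 0.963 CPM and 0.562 CPM in brown adipose, from 8 to 43 counts. By library totals, the highest tissue was above the lowest by 201-fold in the fed and 396-fold in the fasting libraries. Both folds were larger on TMM-adjusted totals.

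Levels of different genes were compared per length, as CPM per kb of the gene length in the count table. On this scale the ratio of Bdh1 to Oxct1 was 26.3 (fed) and 48.5 (fasting) in liver, and it lay between 0.00168 (fasting brown adipose) and 0.130 (fasting kidney) in the other 14 libraries. Oxct1 was the highest of the 7 genes in 12 of 16 libraries and the lowest in the 2 liver libraries. Acat1 was highest in the 4 libraries of liver and brown adipose, and Bdh2 was lowest in 10.

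Liver also stood apart in the ratio of Acat1 to Oxct1 on this scale, which was 67.5 (fed) and 133 (fasting). Brown adipose was the other tissue with a ratio above 1, at 2.15 and 2.31. In the remaining 6 tissues it lay between 0.396 (fed heart) and 0.834 (fasting white adipose), and the fasting value was above the fed value in all 8 tissues.

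**Figure D1:**
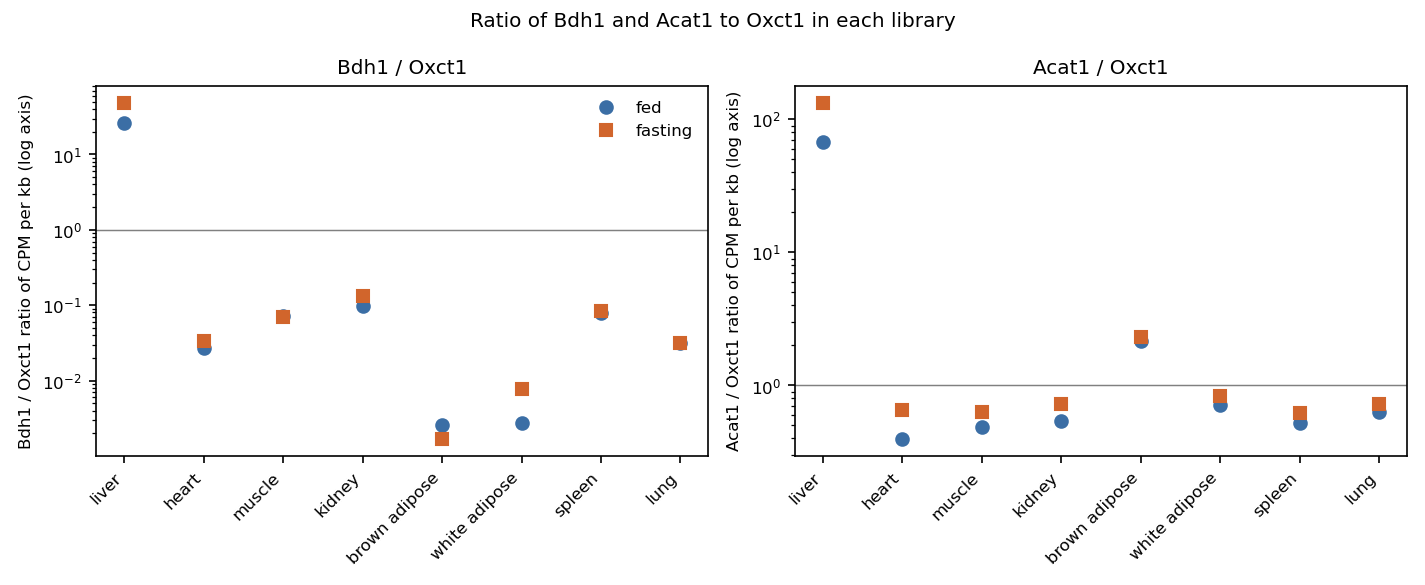
Ratio of Bdh1 to Oxct1 (left) and of Acat1 to Oxct1 (right) in CPM per kb, on log axes, in each of 8 tissues with 1 fed (circle) and 1 fasting (square) library. In the left panel both liver libraries (26.3 and 48.5) lie above 1 and all others at or below 0.130, and in the right panel liver (67.5 and 133) and brown adipose (2.15 and 2.31) lie above 1.

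Acat1, which acts on both arms of the pathway, differed least between tissues together with Slc16a1. Acat1 (ENSMUSG00000032047.5, chr9:53580522-53610382, minus strand) had 866 CPM (fed) and 926 CPM (fasting) in kidney, 780.3 CPM and 746 CPM in brown adipose, 675 CPM and 732 CPM in heart, and 428 CPM and 591 CPM in liver. It had 215 CPM and 165 CPM in white adipose, 192 CPM and 154 CPM in muscle, 78.6 CPM and 71.0 CPM in lung, and 58.9 CPM and 54.4 CPM in spleen. By library totals, the highest tissue was 14.7-fold above the lowest in the fed and 17.0-fold in the fasting libraries. The order of the 8 tissues by library totals was the same under both treatments. On TMM-adjusted totals it was not, since liver lay below kidney, brown adipose and heart when fed and above them when fasting.

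Bdh2 was a gene of kidney in these libraries. Bdh2 (ENSMUSG00000028167.15, chr3:135281221-135304426, plus strand) had 215 CPM (fed) and 202 CPM (fasting) in kidney. The next tissues were liver, with 15.2 CPM and 5.05 CPM, and white adipose, with 2.62 CPM and 5.14 CPM. In lung, muscle, heart, spleen and brown adipose it lay between 0.241 CPM (fed brown adipose, 4 counts) and 1.73 CPM (fed lung).

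Aacs was highest in the 2 adipose tissues and kidney. Aacs (ENSMUSG00000029482.4, chr5:125475814-125517410, plus strand) had 288 CPM (fed) and 191 CPM (fasting) in brown adipose, 270.2 CPM and 156 CPM in white adipose, and 194 CPM and 155 CPM in kidney. In liver it had 88.2 CPM when fed, the fourth highest tissue by library totals, and 10.6 CPM when fasting, the sixth. On TMM-adjusted totals the fasting liver library lay about level with lung and above spleen. It had 39.4 CPM and 23.98 CPM in lung, 32.3 CPM and 22.9 CPM in spleen, 7.35 CPM and 3.81 CPM in muscle, and 7.14 CPM and 5.05 CPM in heart.

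The 2 transporter genes had different tissues at the top. Slc16a1 (ENSMUSG00000032902.1, chr3:104638668-104658462, plus strand) had 713 CPM (fed) and 403 CPM (fasting) in brown adipose and 437 CPM and 335 CPM in heart. The other tissues lay lower, with 89.0 CPM and 136 CPM in kidney, 84.9 CPM and 118 CPM in white adipose, 81.2 CPM and 93.2 CPM in spleen, 80.0 CPM and 124 CPM in liver, 56.3 CPM and 43.0 CPM in muscle, and 48.3 CPM and 38.0 CPM in lung. Slc16a6 (ENSMUSG00000041920.14, chr11:109450855-109473598, minus strand) had 59.5 CPM (fed) and 49.9 CPM (fasting) in spleen and less elsewhere, with 14.8 CPM and 15.3 CPM in kidney, 13.7 CPM and 17.9 CPM in white adipose, 9.81 CPM and 5.85 CPM in liver, 8.48 CPM and 4.85 CPM in lung, 7.44 CPM and 12.8 CPM in heart, 5.81 CPM and 3.01 CPM in muscle, and 1.57 CPM and 0.421 CPM in brown adipose. Brown adipose was the highest tissue for Slc16a1 and the lowest for Slc16a6.

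**Figure D2:**
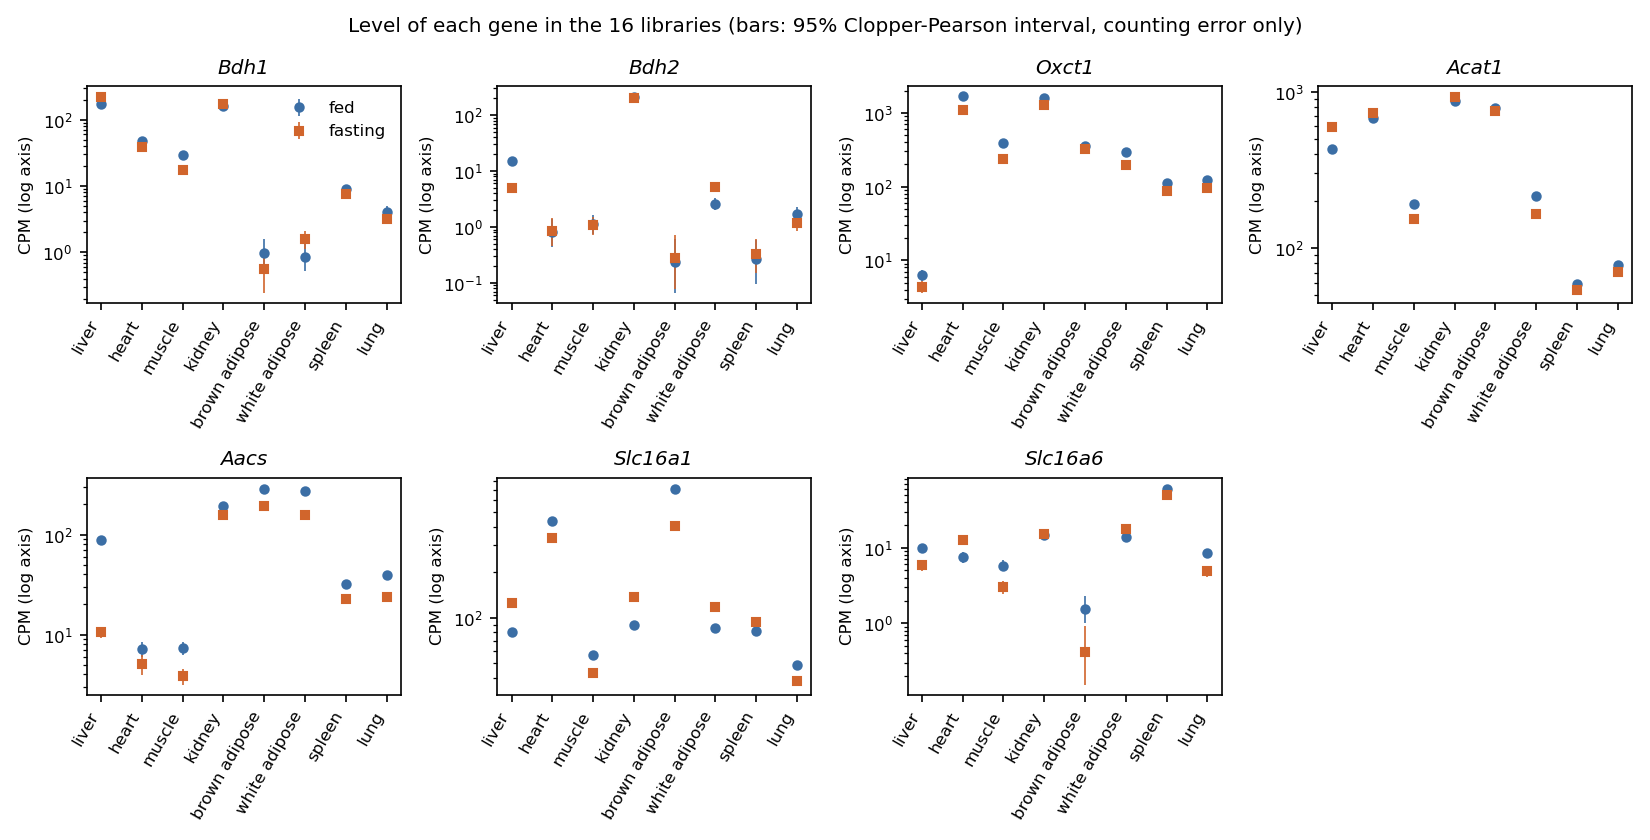
Level of each gene in CPM, on a log axis of its own per panel, in the fed (blue circle) and the fasting (orange square) library of 8 tissues, with 95% Clopper-Pearson intervals for counting error. Liver is lowest for Oxct1 (6.25 and 4.37 CPM) and highest for Bdh1 (172 and 223 CPM), and kidney is highest for Bdh2 (215 and 202 CPM).

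To ask whether liver, the tissue of ketone synthesis, differed from the tissues of ketone use, liver was compared with the mean of heart, muscle and kidney on the log2 scale. Oxct1 was lower in liver by a log2 difference of -7.00 (SE 0.22), and Bdh1, Bdh2 and Aacs were higher, while Acat1, Slc16a1 and Slc16a6 did not pass the test. The test was the quasi-likelihood test of edgeR, adjusted by Benjamini-Hochberg over 23580 genes, in a model of tissue and treatment on all 16 libraries with 7 residual degrees of freedom. The fed and the fasting library of a tissue stand in as its replicates there. The p-values thus rest on how the fasting effect varies between tissues and not on the spread between animals. Of all genes tested 50.6% passed, 25.8% higher and 24.9% lower in liver, so that 4 of 7 members (3 higher, 1 lower) is close to the background and is no result about the group.

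The size of the Oxct1 difference was the largest of the 7 members, with an adjusted p of 5.22e-10 in edgeR's test. Bdh1 was higher in liver by 2.19 (SE 0.19, edgeR adjusted p = 2.28e-06). Against the mean of all 7 other tissues the differences were -5.28 for Oxct1 (edgeR adjusted p = 1.17e-09) and 5.22 for Bdh1 (edgeR adjusted p = 1.36e-10), and both genes passed in all 11 alternatives that were tested. No alternative left out heart, muscle or kidney, so dependence on any of these was not tested. Liver exceeded each of heart, muscle and kidney for Bdh1 under both treatments. The 2 other members that passed did not show this pattern. Bdh2 was higher by 1.07 (SE 0.32, edgeR adjusted p = 0.0153) and Aacs by 1.46 (SE 0.38, edgeR adjusted p = 0.00730), yet kidney was above liver for both genes under both treatments, and liver was above heart and muscle only. For Aacs the difference was 2.30 between fed libraries and -0.10 between fasting ones, given as values with no test, and for Bdh2 it was 1.66 and 0.18. Bdh2 passed in 10 of 11 alternatives, and its difference ran from 0.76 with total counts alone, where it no longer passed (edgeR adjusted p = 0.0915), to 3.09 against the mean of all 7 other tissues (edgeR adjusted p = 2.01e-06). Against that mean Aacs no longer passed (edgeR adjusted p = 0.157).

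Acat1 differed by 0.43 (SE 0.18, edgeR adjusted p = 0.0652). It passed in 3 of 11 alternatives, by 1.76 against the mean of all 7 other tissues (edgeR adjusted p = 1.32e-06), when white adipose was left out (edgeR adjusted p = 0.0331) and when the expression filter was grouped by treatment (edgeR adjusted p = 0.0474). Slc16a1 differed by -0.01 (SE 0.27) and Slc16a6 by 0.12 (SE 0.33), so that a difference of the order of their standard errors in either direction could not be told from none. On TMM-adjusted totals Slc16a1 was lower in liver between fed libraries and higher between fasting ones. Slc16a6 showed the reverse, and neither was tested.

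Of the 20 other genes compared (related enzymes, carriers, receptors and regulators), 17 were tested here, and 8 were higher in liver and 4 lower. Their median log2 difference was 1.68, beside -0.04 over all genes tested. Cpt1a, which admits fatty acids to mitochondria, was higher by 3.26 (SE 0.24, edgeR adjusted p = 4.91e-07) and the deacetylase Sirt3 by 1.68 (SE 0.16, edgeR adjusted p = 5.94e-06). By library totals, kidney was above liver for Cpt1a in the fed libraries (562 CPM and 356 CPM). The same held for Sirt3 in the fasting libraries (96.4 CPM and 83.4 CPM). On TMM-adjusted totals liver was above kidney in both cases, but only narrowly for Cpt1a. These TMM factors came from the fit of fasting against fed across tissues, and the test here used factors from its own set of genes. Among the lower genes was the carrier Slc16a3 (MCT4), at -3.40 (SE 0.33), which had 279.9 CPM and 320.3 CPM in muscle, 1.97 CPM and 2.10 CPM in heart, 0.446 CPM and 0.621 CPM in kidney and 0.564 CPM and 0.481 CPM in liver (fed and fasting). Also lower were the carrier chaperones Bsg, at -1.002 (SE 0.13), and Emb, at -2.34 (SE 0.23).

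**Figure D3:**
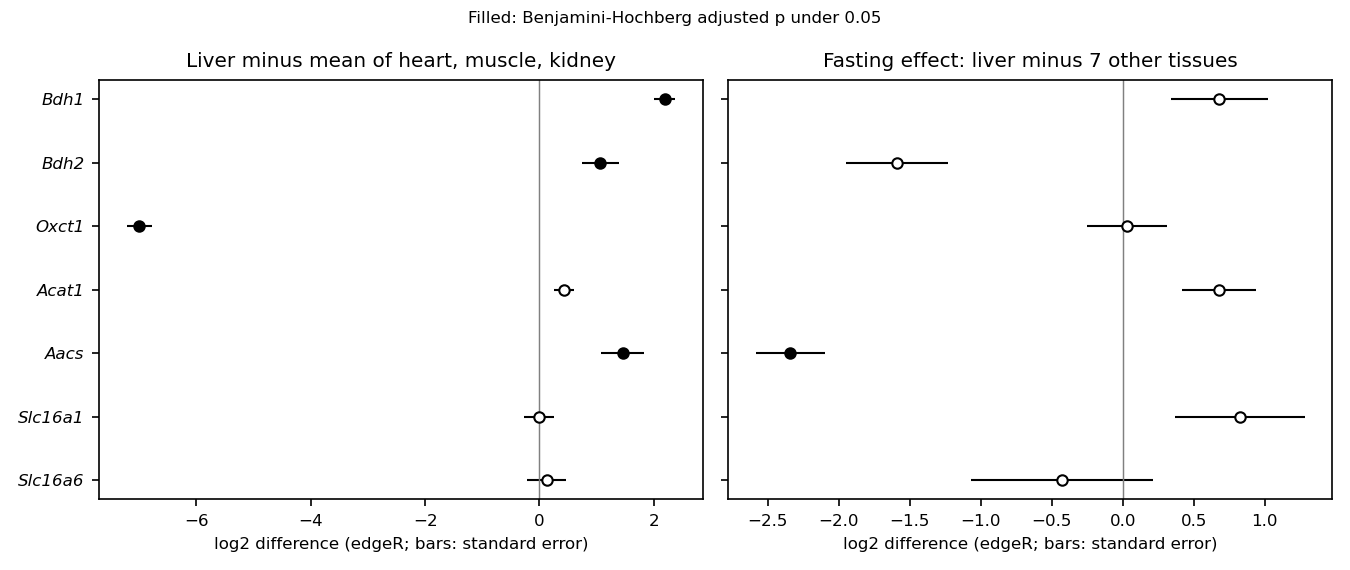
Log2 differences from edgeR with standard errors as bars, liver against the mean of heart, muscle and kidney (left) and the fasting effect of liver against that of the other 7 tissues (right), filled where the adjusted p-value was under 0.05. Oxct1 stands at -7.00 in the left panel and Aacs at -2.34 in the right panel.

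The fasting library was then compared with the fed library within each tissue. A gene was called where the log2 fold change of CPM + 0.01 exceeded 0.5 in size and Fisher's exact test (two-sided) gave an unadjusted p-value under 0.01. Of the 56 pairs of a member and a tissue 20 were called, 16 lower and 4 higher in the fasting library. Of the 52 pairs whose higher library reached 1 CPM these were 38.5%, and over all genes 17.9% of such pairs were called. By tissue, 5 of 7 members were called in liver, 4 in muscle, 3 in each adipose tissue, 2 in heart, 2 in lung, 1 in kidney and none in spleen. Of all genes with a count, 14.0% were called in liver (4.46% higher and 9.52% lower), 13.8% in muscle, 13.0% in brown adipose, 19.1% in white adipose, 10.1% in heart, 9.18% in lung, 6.69% in kidney and 3.93% in spleen. Over the genes that reached 1 CPM in the higher library, as nearly all members did, the shares were 23.2% in liver, 24.2% in muscle, 20.9% in brown adipose, 29.1% in white adipose, 16.7% in heart, 14.3% in lung, 10.7% in kidney and 5.95% in spleen. The lean of liver to lower calls was not kept with TMM factors, under which 1569 genes were called higher and 1608 lower, against 1117 and 2384 by library totals.

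In liver the fasting library held less Aacs and Bdh2 and more Slc16a1. Aacs went from 88.2 CPM to 10.6 CPM, a log2 fold change of -3.06, from 2031 to 264 counts. Bdh2 went from 15.2 CPM to 5.05 CPM (-1.58), Slc16a6 from 9.81 CPM to 5.85 CPM (-0.75), and Slc16a1 from 80.0 CPM to 124 CPM (0.63). Oxct1 was called lower at -0.52, just past the threshold, and lost this call with TMM factors, DESeq2 size factors, a pseudocount of 1 CPM or an adjusted p-value. Acat1 (0.47) and Bdh1 (0.37) were not called, and Acat1 was called higher with TMM factors (0.59). Over all genes of at least 1 CPM the median log2 fold change in liver was -0.13. Of the 17 other pathway genes with a count in liver, 3 were called higher (Cpt1a, 2.02, Ppara, 0.92, and Slc16a7, 0.66) and 3 lower (Hmgcs1, -2.98, Acat2, -1.80, and Acat3, -1.12). Slc16a7 (MCT2) is a carrier of the same family as Slc16a1, Ppara is a fatty acid receptor that acts on transcription, and Hmgcs1 and Acat2 belong to cytosolic cholesterol synthesis, as Aacs does to cytosolic lipid synthesis. Acat2 and Acat3 are close paralogues, and the counting could split reads between them. The acinar markers, of pancreas, summed to 94.4 CPM in the fed and 199.5 CPM in the fasting liver library (Pnlip 19.4 and 45.4 CPM, Ctrb1 11.3 and 40.1 CPM, but Cela1 37.5 and 34.7 CPM), and their part in these values was not tested.

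In heart and muscle, where ketone bodies are used, Oxct1 was called lower. In heart it went from 1678 CPM to 1097 CPM (-0.61) and in muscle from 389 CPM to 239.6 CPM (-0.70). Muscle was also lower for Bdh1 (-0.74), Aacs (-0.94) and Slc16a6 (-0.95), and its median log2 fold change over all genes of at least 1 CPM was -0.14. With TMM factors all 4 muscle calls were kept. Of the 6 adipocyte markers, 5 were lower in the fasting muscle library, with Cfd at 56.4 CPM and 28.5 CPM and Adipoq at 16.1 CPM and 6.79 CPM, and the list summed to 201 CPM (fed) and 173 CPM (fasting). Aacs itself was high in the adipose tissues, and the part of these markers in the muscle calls was not tested. In heart Slc16a6 was called higher, from 7.44 CPM to 12.8 CPM (0.78). The adipocyte markers summed to 374 CPM in the fed and 832 CPM in the fasting heart library, nearly all of it Fabp4, with Adipoq at 0.871 and 0.262 CPM and Lep at 0 in both. The hepatocyte markers summed to 31.9 CPM and 102 CPM there. The cardiomyocyte list summed to 44864 CPM and 44378 CPM. Within it Myl7 had 14.5 CPM and 0.918 CPM, while its other markers went both ways. The part of these shifts in the heart calls was not tested. Slc16a1 had log2 fold changes of -0.38 in heart and -0.39 in muscle and was called in neither. Kidney had 1 call, Slc16a1 from 89.0 CPM to 136 CPM (0.62), while Oxct1 (-0.34), Bdh1 (0.10), Bdh2 (-0.09) and Acat1 (0.10) were not called there. Of the kidney tubule markers, Slc34a1 had 5066 CPM in the fed and 3266 CPM in the fasting kidney library and Slc12a1 1958 CPM and 2623 CPM, while the list of 6 summed to 38260 CPM and 34588 CPM. The acinar list summed to 58.4 CPM and 23.0 CPM, nearly all of it Cela1 (58.1 CPM and 22.8 CPM). The other acinar markers had at most 0.116 CPM in either kidney library. The part of these shifts in the kidney values was not tested.

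In brown adipose Slc16a1 went from 713 CPM to 403 CPM (-0.82), Aacs from 288 CPM to 191 CPM (-0.59) and Slc16a6 from 1.57 CPM to 0.421 CPM (-1.87). The last rests on 26 and 6 counts. All 7 fast skeletal muscle markers were lower in the fasting brown adipose library, and their sum was 2410 CPM when fed and 1125 CPM when fasting, with Myh4 at 1272 CPM and 663 CPM and Acta1 at 415 CPM and 153 CPM. The part of these markers in the brown adipose calls was not tested.

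White adipose was lower for Oxct1 (-0.62) and Aacs (-0.79) and higher for Bdh2 (0.97, from 61 to 141 counts). Bdh1 had a log2 fold change of 0.86 there, from 20 to 43 counts, and was not called. The kidney tubule list summed to 68.2 CPM in fed and 748 CPM in fasting white adipose, of which Lrp2 had 34.9 CPM and 709.6 CPM, while Kap had 20.4 CPM and 18.2 CPM. The epithelial list (Krt14, Krt5, Krt8, Krt18, Epcam, Csn2) summed to 16.2 CPM and 234 CPM, with Krt8 at 8.54 CPM and 106 CPM and Krt18 at 4.72 CPM and 67.1 CPM, and with Krt5 and Csn2 at 0 in both. The adipocyte markers summed to 20235 CPM and 16766 CPM, with Cfd at 8052 CPM and 6800.1 CPM. Plin1 had 2021 CPM and 746 CPM, Lep 1142 CPM and 263 CPM, and Retn 879 CPM and 501 CPM. Adipoq had 2506 CPM and 2247 CPM, while Fabp4 was higher when fasting, at 5635 CPM and 6208 CPM. The B cell markers summed to 346 CPM and 82.7 CPM, nearly all of it Ighm. The part of these cell types in the white adipose values was not tested.

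Lung had Aacs (-0.71) and Slc16a6 (-0.80) called lower. There the B cell markers summed to 343 CPM (fed) and 177 CPM (fasting) and the cardiomyocyte markers to 1074 CPM and 563 CPM, and their part in these calls was not tested. In spleen no member was called, and the log2 fold changes ran from -0.50 (Aacs) to 0.28 (Bdh2, 6 and 9 counts). The erythroid markers summed to 3825 CPM in the fed and 9264 CPM in the fasting spleen library and the acinar markers to 447 CPM and 11.6 CPM, and their part in the spleen values was not tested. Acat1 was the member called in none of the 8 tissues, with log2 fold changes between -0.39 in white adipose and 0.47 in liver.

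**Figure D4:**
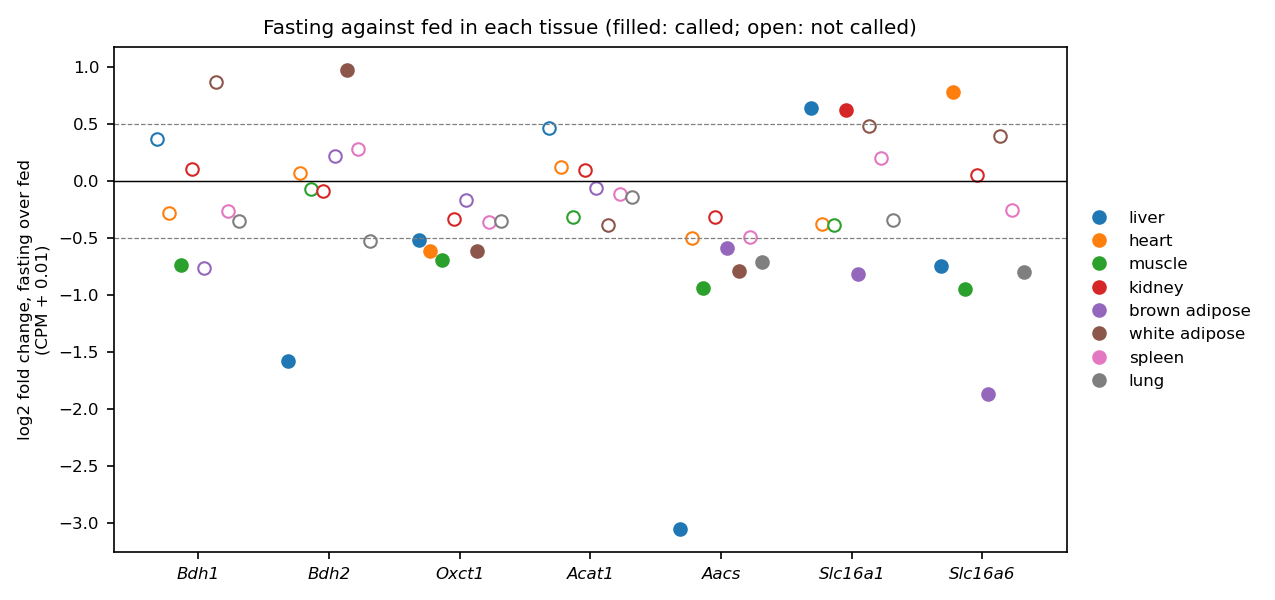
Log2 fold change of fasting over fed (CPM + 0.01) for the 7 genes in the 8 tissues, filled where called, with dashed lines at 0.5 and -0.5. Oxct1 and Aacs lie below 0 in all 8 tissues, and Aacs in liver is lowest at -3.06.

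To ask which members moved alike over the tissues, the 16 libraries were fitted together by edgeR's quasi-likelihood test with tissue as a block, over 17296 genes and 7 residual degrees of freedom. Oxct1 fell, with a log2 fold change of -0.42 (SE 0.08, edgeR adjusted p = 0.0287), and it was lower in the fasting library of 8 of 8 tissues, by 0.17 (brown adipose) to 0.70 (muscle). It was the 1 member of 7 that passed, beside 4.39% of all genes (2.31% higher and 2.08% lower). The tissues share the 2 groups of mice, so this test measures the spread between tissues and not between animals. The call was lost without muscle (edgeR adjusted p = 0.0620), heart (0.0684), lung (0.0573) or both adipose tissues (0.0730), with log2 fold changes of -0.44 to -0.40 there.

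Aacs was also lower in 8 of 8 tissues, with a log2 fold change of -0.86 (SE 0.25), but did not pass (edgeR adjusted p = 0.0778). Its log2 fold change was -3.06 in liver and between -0.94 and -0.32 in the other tissues. Without liver it passed, at -0.59 (SE 0.08, edgeR adjusted p = 0.0157), and DESeq2's Wald test on all libraries gave an adjusted p of 0.0120. The other members were not called, with Bdh1 at -0.08 (SE 0.14), Bdh2 at -0.18 (SE 0.24), Acat1 at -0.0032 (SE 0.11), Slc16a1 at 0.04 (SE 0.17) and Slc16a6 at -0.25 (SE 0.21). Of the 20 other pathway genes, 15 were tested, Cpt1a rose by 0.96 (SE 0.16, edgeR adjusted p = 0.0157), and none passed as lower. Hmgcs1 was below its fed level in CPM in 8 of 8 tissues, at -0.90 (SE 0.24, edgeR adjusted p = 0.0636). Cpt1a was higher in the fasting library of 8 of 8 tissues, by 0.47 in white adipose to 2.02 in liver.

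The difference between the fasting response of liver and that of the other 7 tissues was tested with a liver by treatment term, on 6 residual degrees of freedom. Liver has 1 library per treatment, so the standard errors and p-values of this term rest on the spread among the other 7 tissues, and liver is assumed to vary like them. Aacs fell further in liver, by -2.34 (SE 0.24, edgeR adjusted p = 0.0121). Of all genes 0.295% passed, 0.185% higher and 0.110% lower in liver, and of the 7 members Aacs alone did. It passed in all 13 other settings, with adjusted p-values from 4.02e-12 to 0.0410 and differences from -2.45 to -2.29. Hmgcs1 was the 1 of 15 other pathway genes that passed (-2.21, SE 0.29, edgeR adjusted p = 0.0219). Bdh2 differed by -1.59 (SE 0.36) and did not pass (edgeR adjusted p = 0.140), but passed without white adipose (edgeR adjusted p = 0.0362). Bdh1 (0.68, SE 0.34), Acat1 (0.68, SE 0.26), Slc16a1 (0.82, SE 0.46), Oxct1 (0.03, SE 0.28) and Slc16a6 (-0.43, SE 0.64) did not pass.

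The genes whose levels followed each member most closely over the 16 libraries were found by Pearson's r of log2(CPM + 1) among 13224 genes with a mean of at least 5 CPM, as a description. The 2 libraries of a tissue are points that share a tissue, and r gives no test. Bdh1 was closest to Cpox (r = 0.93), an enzyme of haem synthesis, and Slc47a1 (0.91), an organic cation exporter, and Bdh2 to Gm45792 (0.98) and Cda (0.97). Oxct1 was closest to Rab11fip5 (0.95) and Tspan3 (0.94), and Acat1 to Vwa8 and Cpt2 (both 0.97), of which Cpt2 is a mitochondrial enzyme of fatty acid oxidation. Aacs was closest to Acat2 (0.94) and Bcap31 (0.92), Slc16a1 to Foxred1 and Mrps18c (both 0.94), and Slc16a6 to Zdhhc13 and Gm1976 (both 0.92). Between the members, the highest r was that of Slc16a1 and Acat1 (0.68), followed by Bdh1 and Bdh2 (0.63), and the lowest that of Slc16a6 and Acat1 (-0.44). Oxct1 and Bdh1 had r = -0.11.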

How the data were processed

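Short-read RNA-Seq of 8 tissues under fed and fasting (24 h) conditions was analysed, with 1 library per tissue and treatment, grouped by the sample labels. The authors made strand-specific libraries, read them as pairs of 100 bases and, by their processing notes, used fastp (0.23.2) for trimming, FastQC for quality, HISAT2 (2.2.1.0) for alignment to build GRCm38, and featureCounts of Subread (2.0) with GENCODE release 24 for counting. They deposited raw counts per gene and library, with no normalization, and the gene lengths (an other value) that were deposited with them. Whether reads or pairs were counted is not given in the sources used here. Symbols came from GENCODE release 21 with the version dropped, which matched 55144 of 55385 genes. No column went unused.

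CPM used the library total. Within a tissue, Fisher's exact test (two-sided) followed the study's thresholds, a log2 fold change above 0.5 with a pseudocount of 0.01 CPM and p under 0.01. Across tissues, edgeR 4.0.16 (R 4.3.3) was used with TMM, filterByExpr and Benjamini-Hochberg adjustment under 0.05. The filter was grouped by treatment for the fasting and liver response fits and by tissue for the liver contrast, and the other grouping was an alternative added after seeing the data. DESeq2 1.42.0, other scalings, filters, thresholds and left-out tissues were alternatives. The Fisher and edgeR steps were tested on simulated data. Motifs were read from RefSeq windows. Other steps ran in Python (3.11.15) with pandas (2.3.3), scipy (1.17.1) and numpy (2.4.6), compiled by numba (0.67.0) and drawn with matplotlib (3.10.9). The members and lists were chosen with earlier results of these data known. Named genes are the members, other pathway genes called across tissues or in liver, the 2 genes most alike to each member and the highest markers of a list that moved. Sirt3, Slc16a3, Bsg and Emb, and Kap, Slc34a1, Slc12a1, Myl7, Krt5, Csn2, Adipoq, Lep, Plin1, Retn and Cela1, were named after their values were seen. No significance adjusted over the members alone was computed. Some genes that the lists named are not reported here.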

Additional observations from a re-analysis of the deposited data

Results flagged for a closer look

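The fasting response of liver differed from that of the other 7 tissues for Aacs by -2.34 (log2) and for Hmgcs1 by -2.21, both by the liver by treatment term of edgeR's model (adjusted p = 0.0121 and 0.0219). Liver has 1 library per treatment, so these p-values rest on the spread among the other 7 tissues and on the assumption that liver varies like them. Both genes were lower in the fasting library of all 8 tissues.

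Several genes were called higher in the fasting library of 1 tissue and lower in that of another, and the difference between those tissues was not tested in a model. Between the highest and the lowest called log2 fold change lay 2.55 for Bdh2 (white adipose and liver), 1.46 for Slc16a1 (liver and brown adipose) and 2.65 for Slc16a6 (heart and brown adipose). Among the other pathway genes these spans were 3.11 for Acat3 (white adipose and liver), 2.03 for Slc16a7 (liver and brown adipose) and 1.90 for Ppara (liver and muscle). The Slc16a6 span rests on 26 and 6 counts in brown adipose, and the Bdh2 span on 61 and 141 counts in white adipose.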

How the results depend on the processing

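The labels give no replicate numbers, and the fasting fit across tissues pairs the fed and fasting library of each tissue. Within tissues, 20 of 56 pairs were called, and 19 or 20 with another pseudocount, scaling, filter or an adjusted p-value. The count was 3 with a log2 fold change above 1 (Aacs and Bdh2 in liver, Slc16a6 in brown adipose), 2 when edgeR's exact test assumed a coefficient of variation of 0.2 between pools (Aacs and Bdh2 in liver), and 1 at 0.4 (Aacs in liver), values that were assumed and not measured. These 3 counts are 5.36%, 3.57% and 1.79% of the 56 pairs. Over all genes with a count, calls above 1 ran from 482 of 29373 (spleen) to 3334 of 29956 (white adipose). At 0.2 they ran from 243 of 29373 (spleen) to 2549 of 29956 (white adipose). No share over all tissues was computed for these settings. The excess of members under the main rule (38.5% against 17.9% at 1 CPM) was thus not shown for them. With 1 library per group the depth is not the limit for genes above 10 CPM, and the spread between pools is unknown.

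Across tissues, 1 member was called, 2 by DESeq2 (Oxct1 and Aacs), 0 without both adipose tissues, 0 without the tissue block, and 0 to 2 when 1 tissue was left out. Of all genes, 759 of 17296 passed in the main fit and 1818 by DESeq2. Without both adipose tissues 131 of 17300 passed, without the tissue block 1, and with 1 tissue left out 156 to 721. The liver response gave 1 member, 2 without both adipose tissues (Aacs and Bdh2, the latter at an adjusted p of 0.0395 in edgeR), and 1 to 2 when 1 tissue was left out. For all genes these counts were 51 of 17296, 147 of 17300 and 7 to 124. The liver contrast gave 4 members and 3 to 5 in the alternatives, beside 11943 of 23580 genes in the main fit and 10812 to 12394 genes in the alternatives. The median of the 112 levels was 55.4 CPM, and 51.0 CPM on TMM-adjusted totals. Levels of single libraries moved by more, with TMM factors from 0.521 (fasting muscle) to 1.51 (fed spleen). This changed some orders and folds between tissues, as given with the levels. Of the 14 genes named as most alike, 6 stayed among the 10 highest by Spearman's rho and 10 over the 8 fed libraries.

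Signs turned only where the main value was near 0 and not called, with 1 exception, Aacs in the liver contrast, which was called (1.46) and stood at -0.10 in the fasting libraries. Bdh2 in muscle turned to 0.063 with TMM factors and 0.10 with DESeq2 size factors. Across tissues, total counts alone turned Slc16a1 to -0.0025. Without both adipose tissues Acat1 was 0.087, and without the tissue block Bdh1, Acat1 and Slc16a1 were 0.24, 0.14 and -0.25. With 1 tissue left out, Acat1 ranged from -0.088 to 0.066, Slc16a1 from -0.065 to 0.16, Bdh1 from -0.19 to 0.020 (without muscle) and Bdh2 from -0.43 to 0.13 (without liver). In the liver contrast, Slc16a6 was -0.19 by total counts alone, and Slc16a1 was 0.47 against all 7 other tissues, 0.0019 with the other filter grouping, and -0.050 to 0.013 with 1 tissue left out. Both genes also had opposite signs between the fed and the fasting libraries on TMM-adjusted totals. In the liver response, Oxct1 was -0.076 by total counts alone and -0.022 to 0.066 with 1 tissue left out. The cause of these turns was not tested.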
